A study of Mus musculus with 8 samples.

Results

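Sterol and fatty acid synthesis genes were examined in Kupffer cells, the liver's own macrophages, which were sorted from mice whose livers carried metastases of B16F10, a mouse melanoma line. The set held 30 genes, chosen by name from the known pathway, and all 30 were found among the 56691 genes of the deposited table and passed the filter on low counts that left 15870 genes. Wild-type mice (WT) gave 4 libraries, and Vsig4-/- mice (KO) gave the other 4; the latter lack a complement receptor of tissue macrophages; both genotypes carried tumour. The sort kept DAPI-negative cells with CD45 and Tim-4 on their surface. Age, sex, the way the Vsig4 allele was made and whether each library came from its own animal are not stated in the labels, so the spread between libraries may be in part technical.

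Cells build cholesterol from acetyl-CoA through the mevalonate pathway, in which farnesyl diphosphate is made first and is then joined to squalene, closed to a ring and trimmed to the finished sterol. The transcription factors SREBP1 and SREBP2, encoded by Srebf1 and Srebf2, switch these genes on when sterols run low; the escort protein Scap carries them out of the endoplasmic reticulum, and Insig1 and Insig2 hold them back. SREBP1 also drives fatty acid synthesis, which uses the same acetyl-CoA. Macrophages take up much of their cholesterol from engulfed cells and lipoproteins, while dividing tumour cells are known for high rates of lipid synthesis.

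Total counts ran from 15264043 to 19513844 per library. Counts of Vsig4 were 22498 to 46735 in WT and 2 to 9 in KO, the direction of the labels. All 10 Kupffer markers, which include Clec4f, Timd4 (the sort marker Tim-4) and Vsig4, were detected in every library, and their sum ran from 20550 to 37850 CPM (counts scaled to a common TMM library size) in WT and from 7553 to 23680 CPM in KO. Without Vsig4 the WT sums were 19160 to 34960 CPM and the KO sums the same. Melanoma transcripts were also present in every library. Pmel, a structural protein of the pigment granule, was at 37.5, 31.6, 421 and 369 FPKM in WT 1 to 4 and at 196, 272, 992 and 517 FPKM in KO 1 to 4. Dct, an enzyme of pigment synthesis, was at 31.6, 25.8, 357 and 301 FPKM in WT 1 to 4 and at 158, 227, 757 and 390 FPKM in KO 1 to 4. WT 1 and WT 2 thus stood far below the other 6 libraries in both genes, and KO 3 above them all. FPKM here are counts divided by exonic length and by the TMM-scaled library size, so levels of different genes can be set side by side.

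The promoters of the set were read for the letters that SREBP and its partner NF-Y are known to bind. Of the 30 genes, 25 had a promoter in the RefSeq table (GRCm38.p6), as a window of 300 bases that ends 50 bases into the transcript. The sterol regulatory element was searched as TCACNCCAC and the NF-Y box as CCAAT, each on both strands; these 2 motifs do not contain each other. The NF-Y box was in 21 of 25 members (84.0%), against 37.4% of all 32851 promoters and 43.0% of the 11116 tested genes with a promoter. The element TCACNCCAC was in 1 member, Hmgcs1 (4.0%), against 1.24% of all promoters and 1.4% of tested genes. Only this spelling was searched, so other spellings of the element were not counted. The GC box GGGCGG was in 21 members (84.0%), against 65.0% of tested genes, and the E-box CACGTG in 5 members (20.0%), against 11.4% of tested genes. These are matches of letters in a window and no record of binding. Shown are the 250 bases before the start of Hmgcs1, which alone held both motifs, of Fasn, which had the steepest slope on tumour transcripts described below, and of Elovl6, which had a similar slope and no NF-Y box. Fasn and Elovl6 were picked for this after their values were seen. Each is given in the direction of transcription, with every TCACNCCAC and CCAAT match, on either strand, in capitals.
Hmgcs1 (chr13:119690101-119690350, plus strand): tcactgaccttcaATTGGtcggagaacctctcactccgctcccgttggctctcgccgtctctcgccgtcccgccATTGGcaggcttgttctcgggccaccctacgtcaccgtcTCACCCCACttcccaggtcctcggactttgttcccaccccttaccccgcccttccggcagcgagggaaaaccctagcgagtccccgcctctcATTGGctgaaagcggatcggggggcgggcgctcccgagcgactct
Fasn (chr11:120824548-120824797, minus strand): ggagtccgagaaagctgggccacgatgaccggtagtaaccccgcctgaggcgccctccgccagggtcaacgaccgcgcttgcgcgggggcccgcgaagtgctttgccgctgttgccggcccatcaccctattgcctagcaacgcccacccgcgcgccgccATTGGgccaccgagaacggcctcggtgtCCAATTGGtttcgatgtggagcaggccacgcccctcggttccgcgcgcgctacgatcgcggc
Elovl6 (chr3:129532136-129532385, plus strand): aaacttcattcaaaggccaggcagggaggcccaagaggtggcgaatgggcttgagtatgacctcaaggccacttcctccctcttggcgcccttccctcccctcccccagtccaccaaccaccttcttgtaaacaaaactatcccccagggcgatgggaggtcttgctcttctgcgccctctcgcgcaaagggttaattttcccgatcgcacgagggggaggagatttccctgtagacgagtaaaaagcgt

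No member of the set differed between KO and WT past the adjusted threshold, while part of it followed the tumour transcripts from library to library. In edgeR's quasi-likelihood test 0 of the 30 genes passed an adjusted p of 0.05 in KO against WT, where 0% of all tested genes were called higher and 0.00630% lower (1 gene, Vsig4). DESeq2 and limma on log2(FPKM + 1) also called 0 members. At an unadjusted p under 0.05, 1 member was higher in KO (Dhcr7) and 1 lower (Mvd), against 4.23% and 4.56% of all tested genes. The median log2 fold change over the 30 genes was 0.118 (KO minus WT), against -0.00279 over all tested genes, with 21 members at higher and 9 at lower values in KO. The single fold changes ran from -0.50 in Tm7sf2 to 0.99 in Elovl6.

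**Figure D1:**
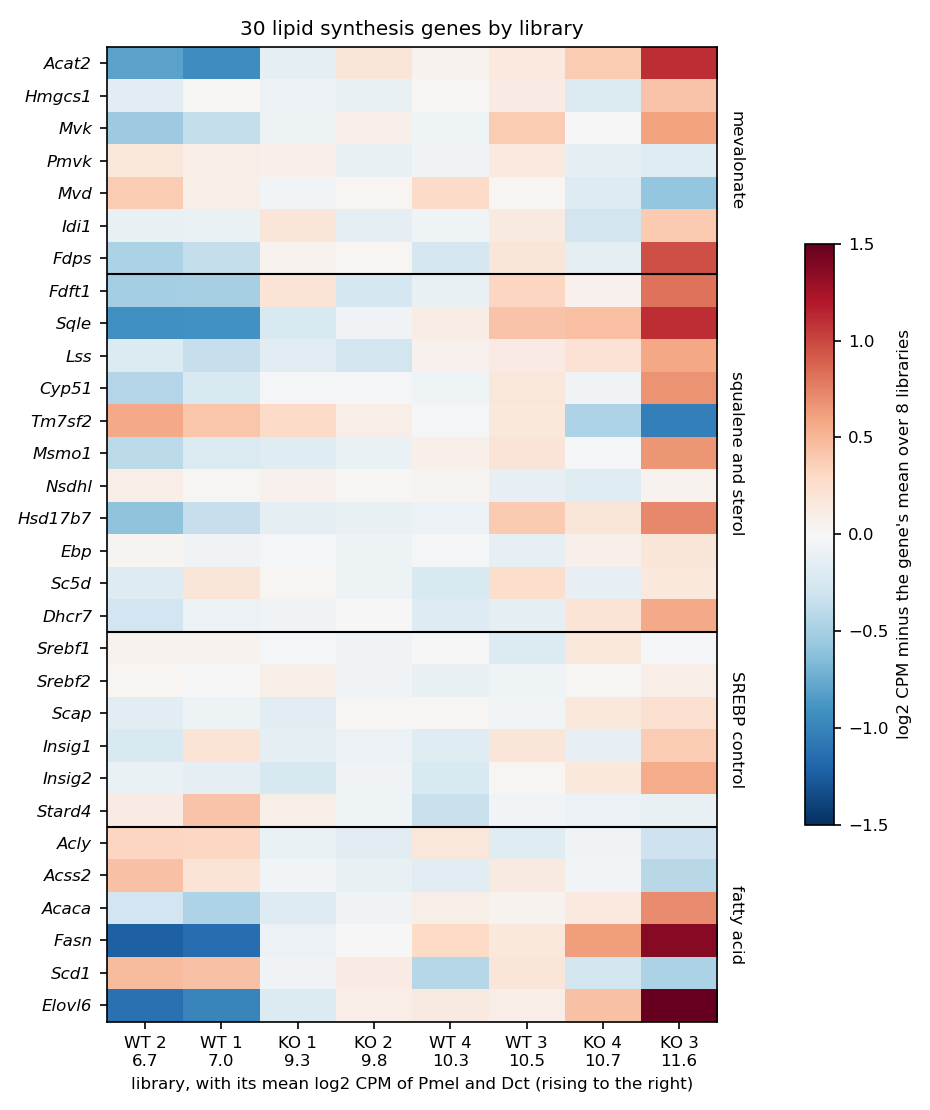
Level of each of the 30 genes in the 8 libraries as log2 CPM minus the gene's own mean over the libraries (colour, red above and blue below the mean), in rows grouped by role. The libraries are ordered from left to right by the mean log2 CPM of Pmel and Dct, from WT 2 to KO 3; Fasn, Elovl6, Sqle and Acat2 are lowest in WT 1 and WT 2 and highest in KO 3, while the SREBP control genes have pale rows.

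The slope of each gene on the tumour transcripts was then fitted over all 8 libraries, with genotype in the same model. The slope is the change in log2 level per unit of the mean log2 CPM of Pmel and Dct, which ran from 6.72 in WT 2 to 11.6 in KO 3, a 30.3-fold range. A slope of 1 is that of a transcript that moves in proportion to Pmel and Dct. In edgeR 11 of 30 members (36.7%) had a positive slope past the adjusted threshold, against 20.7% of all tested genes, and 1 of 30 (3.33%) a negative one, against 13.9%. The members with positive slopes were Fasn, Elovl6, Sqle, Acat2, Hsd17b7, Fdft1, Mvk, Acaca, Msmo1, Lss and Cyp51, and the one with a negative slope was Scd1. The median slope was 0.0608 over the members and 0.00129 over all tested genes. Each level is relative to its own library, so RNA of 1 source lowers the share of every other, and a slope is a statement about shares of RNA.

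Among the enzymes that lead from acetyl-CoA to farnesyl diphosphate, the first rose with the tumour transcripts and most of the others had small slopes. Acat2, which joins 2 molecules of acetyl-CoA, was at 3.22, 3.53, 6.84 and 6.42 FPKM in WT 1 to 4 and at 5.64, 7.06, 13.4 and 8.09 FPKM in KO 1 to 4. WT 1 and WT 2 were the lowest libraries and KO 3 the highest, and the genotypes overlapped. Its slope was 0.33 ± 0.0512 (SE; edgeR adjusted p = 0.00141). KO averaged 8.56 ± 3.41 FPKM and WT 5.00 ± 1.89 FPKM (SD, n = 4 each), a log2 fold change of 0.77 ± 0.343 (edgeR adjusted p = 0.492). Its near-identical copy Acat3, to which reads can be misassigned, was at 0.235 to 1.63 FPKM over the 8 libraries.

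Mvk, the mevalonate kinase, was at 1.94, 1.70, 3.26 and 2.38 FPKM in WT 1 to 4 and at 2.37, 2.63, 3.81 and 2.49 FPKM in KO 1 to 4. Its slope of 0.20 ± 0.0609 passed the threshold (edgeR adjusted p = 0.0296). Hmgcs1, the synthase that makes HMG-CoA, was at 9.93, 8.69, 10.7 and 9.96 FPKM in WT 1 to 4 and at 9.21, 9.05, 13.2 and 8.43 FPKM in KO 1 to 4. Only KO 3 stood apart there, and the lowest library was KO 4, with abundant tumour RNA. Mvd, the decarboxylase that yields isopentenyl diphosphate, was the most abundant of this group, at 12.4, 15.1, 11.9 and 14.2 FPKM in WT 1 to 4 and at 11.4, 11.8, 7.77 and 10.2 FPKM in KO 1 to 4. All 4 KO values lay below all 4 WT values, though WT 3 and KO 2 were nearly equal, as in 2.85% of tested genes. The log2 fold change of Mvd was -0.38 ± 0.160 (edgeR adjusted p = 0.492). A negative slope of Mvd was called without WT 1 and WT 2. Pmvk, Idi1 and Fdps, the next kinase, the isomerase and the farnesyl diphosphate synthase, passed neither the genotype test nor the slope fit described above. A positive slope of Fdps was called with library totals, without WT 4 and with no genotype term, and a higher level in KO with the replicate block without number 4. With scaling to equal Kupffer marker sums a positive slope was called in Pmvk, Idi1 and Fdps, as in 75.1% of tested genes. Fdps was at 8.58 FPKM in KO 3 and at 3.15 to 4.99 FPKM in the other libraries.

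The squalene and sterol enzymes held the most members with a positive slope, 6 of 11 (54.5%, against 20.7% of tested genes), with a median slope of 0.153. Sqle, squalene epoxidase, which carries out the first oxygen-dependent step, was at 2.46, 2.45, 6.28 and 5.03 FPKM in WT 1 to 4 and at 3.96, 4.46, 10.1 and 6.38 FPKM in KO 1 to 4. Its order over the 8 libraries was that of the mean of Pmel and Dct, with WT 1 and WT 2 nearly equal, and the highest value was 4.10 times the lowest. The slope of Sqle was 0.40 ± 0.0478 (edgeR adjusted p = 0.000279), and its log2 fold change in KO 0.62 ± 0.399 (edgeR adjusted p = 0.496).

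Cyp51, the lanosterol demethylase, was at 7.87, 6.78, 10.4 and 8.78 FPKM in WT 1 to 4 and at 9.01, 9.03, 14.7 and 8.85 FPKM in KO 1 to 4. Msmo1, a sterol methyl oxidase, was at 4.61, 4.03, 6.12 and 5.67 FPKM in WT 1 to 4 and at 4.72, 4.98, 8.46 and 5.30 FPKM in KO 1 to 4. In both genes KO 3 was well above the other 3 KO libraries, which lay within the WT range. Their slopes were 0.15 ± 0.0484 and 0.18 ± 0.0469 (edgeR adjusted p = 0.0356 and 0.0175).

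Fdft1, squalene synthase, was at 2.49, 2.47, 4.42 and 3.28 FPKM in WT 1 to 4 and at 4.07, 2.94, 6.22 and 3.70 FPKM in KO 1 to 4. It overlaps the cathepsin gene Ctsb on the opposite strand, which has a mean of 111000 counts beside 265 for Fdft1, and the strand setting of the counting is not given, so its level is uncertain. Lss, the cyclase that forms lanosterol, was at 1.25, 1.38, 1.73 and 1.66 FPKM in WT 1 to 4 and at 1.42, 1.31, 2.38 and 1.85 FPKM in KO 1 to 4. Hsd17b7, a sterol ketone reductase, was at 0.990, 0.825, 1.66 and 1.18 FPKM in WT 1 to 4 and at 1.13, 1.17, 2.09 and 1.43 FPKM in KO 1 to 4. These 3 genes were again lowest in WT libraries 1 and 2 or close to them and highest in KO 3, with slopes of 0.21 ± 0.0637, 0.16 ± 0.0517 and 0.23 ± 0.0649 (edgeR adjusted p = 0.0290, 0.0405 and 0.0214).

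The other sterol enzymes passed neither the genotype test nor the slope fit described above. Other settings called a negative slope in Tm7sf2 (DESeq2, and edgeR with Pmel alone, with all melanoma markers, with no genotype term or without WT 1 and WT 2) and a positive one in Dhcr7 (without WT 1 and WT 2). With scaling to equal Kupffer marker sums a positive slope was called in Ebp, Nsdhl, Sc5d and Dhcr7, as in 75.1% of tested genes. Ebp, a sterol isomerase and the most abundant sterol enzyme, was at 14.5, 15.4, 13.7 and 14.8 FPKM in WT 1 to 4 and at 14.8, 14.2, 17.0 and 15.8 FPKM in KO 1 to 4, a range of 1.24-fold. Nsdhl, a sterol dehydrogenase, and Sc5d, a sterol desaturase, had ranges of 1.22-fold and 1.41-fold. Dhcr7, the reductase of the last step to cholesterol, was at 4.70, 4.08, 4.51 and 4.39 FPKM in WT 1 to 4 and at 4.81, 5.04, 7.44 and 5.76 FPKM in KO 1 to 4. All 4 KO values were above all 4 WT values, as in 2.71% of tested genes, and the log2 fold change was 0.38 ± 0.151 (edgeR adjusted p = 0.492). Tm7sf2, a sterol reductase, had its highest value in WT 2 (3.61 FPKM) and its lowest in KO 3 (1.18 FPKM), the reverse of most enzymes of this group; it shares bases with Vps51 on the same strand.

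**Figure D2:**
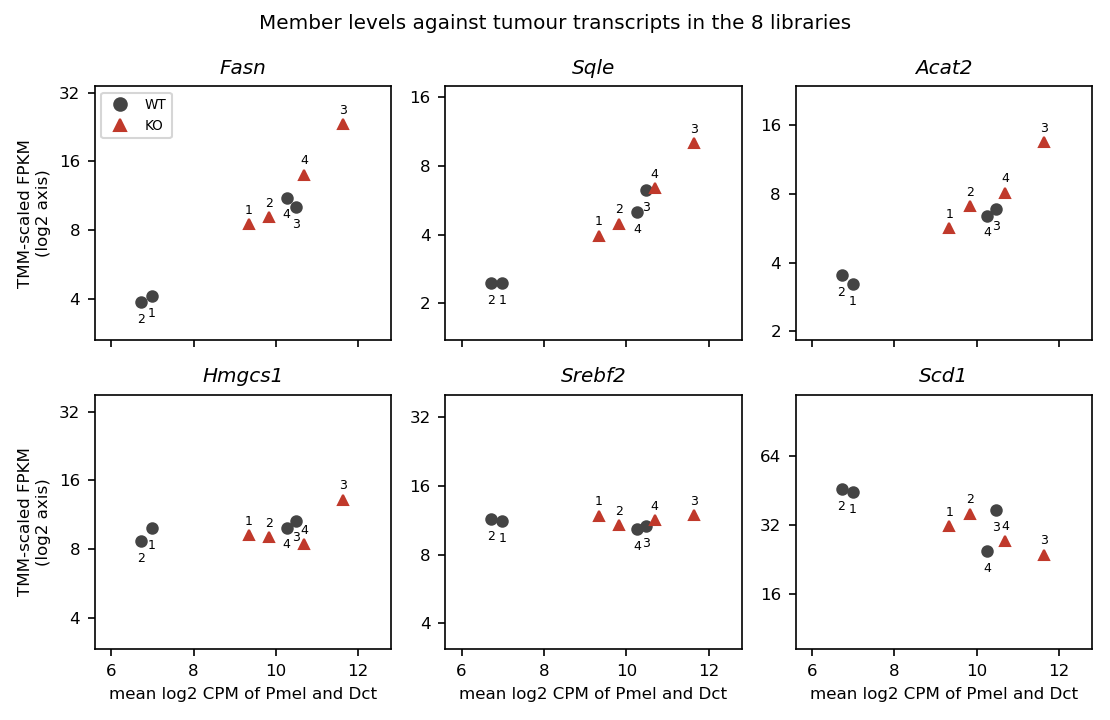
TMM-scaled FPKM (log2 axis) of 6 members against the mean log2 CPM of Pmel and Dct, 1 point per library with its replicate number (WT circles, KO triangles); every panel spans the same fold range. Fasn, Sqle and Acat2 climb from WT 1 and WT 2 on the left to KO 3 on the right in both genotypes, Hmgcs1 and Srebf2 stay within 1.56-fold and 1.15-fold, and Scd1 declines.

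Of the genes that control SREBP, 0 of 6 passed the genotype test or the slope fit described above in edgeR (DESeq2 and limma on log2(FPKM + 1) also called 0). Their highest values were 1.15 (Srebf2) to 1.74 (Insig2) times their lowest. Other settings called a positive slope in Insig2 (without WT 1 and WT 2) and in Scap (library totals). Scaling to equal Kupffer marker sums called a positive slope in all 6, and in 75.1% of tested genes. Srebf2, the main factor of sterol genes, was at 11.2, 11.4, 10.6 and 10.4 FPKM in WT 1 to 4 and at 11.9, 10.8, 11.9 and 11.3 FPKM in KO 1 to 4. Its highest value was 1.15 times its lowest, the narrowest range of the 30 members. Srebf1 ran from 7.80 FPKM in WT 3 to 10.1 FPKM in KO 4, and Scap from 5.45 FPKM in WT 2 to 7.22 FPKM in KO 3.

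Insig1, itself a gene that SREBP switches on, was at 22.5, 16.7, 22.2 and 17.2 FPKM in WT 1 to 4 and at 17.6, 18.3, 25.4 and 18.0 FPKM in KO 1 to 4. It had the highest level of the control genes, and its WT values took up most of its range. Insig2 was at 9.20, 9.43, 10.3 and 8.59 FPKM in WT 1 to 4 and at 8.51, 9.71, 14.8 and 11.3 FPKM in KO 1 to 4 (log2 fold change 0.24 ± 0.172, edgeR adjusted p = 0.511). Stard4, a carrier that moves sterol between membranes, was at 5.31, 4.31, 3.84 and 3.14 FPKM in WT 1 to 4 and at 4.21, 3.79, 3.65 and 3.71 FPKM in KO 1 to 4. It had the largest slope of the control genes, -0.12 ± 0.0420, which did not pass the threshold (edgeR adjusted p = 0.0579) but did without KO 3 (0.049) and with no genotype term (0.04).

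Among the 6 fatty acid genes 3 rose and 1 fell with the tumour transcripts (50% and 16.7%, against 20.7% and 13.9% of tested genes, so the share that fell is near the background). Fasn, fatty acid synthase (ENSMUSG00000025153, chromosome 11, 120696672 to 120715373, minus strand as deposited, positions that do not match the named build mm10), was at 4.11, 3.87, 10.1 and 11.1 FPKM in WT 1 to 4. It was at 8.49, 9.12, 23.3 and 14.0 FPKM in KO 1 to 4, and its highest value was 6.01 times its lowest. The 2 WT libraries low in tumour transcripts were low, the 2 WT libraries high in them exceeded KO 1 and KO 2, and KO 3 was above all. The slope of Fasn, 0.45 ± 0.0478, was the steepest of the set (edgeR adjusted p = 0.000112), and its log2 fold change in KO was 0.91 ± 0.451 (13.7 ± 6.83 FPKM in KO and 7.30 ± 3.84 FPKM in WT, edgeR adjusted p = 0.492).

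Elovl6, which lengthens the fatty acid that Fasn makes, was at 1.32, 1.20, 2.82 and 2.88 FPKM in WT 1 to 4 and at 2.27, 2.81, 7.66 and 3.57 FPKM in KO 1 to 4. Its 6.40-fold range was the widest of the 30 members, with a slope of 0.43 ± 0.0698 (edgeR adjusted p = 0.00171) and the largest log2 fold change, 0.99 ± 0.452 (edgeR adjusted p = 0.492). Acaca, the carboxylase that supplies malonyl-CoA, was at 1.65, 1.86, 2.36 and 2.41 FPKM in WT 1 to 4 and at 1.98, 2.19, 3.73 and 2.52 FPKM in KO 1 to 4 (slope 0.18 ± 0.0469, edgeR adjusted p = 0.0174). Acaca, Fasn and Elovl6 act in sequence, and all 3 rose with the tumour transcripts.

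Scd1 and Acly had the highest levels of the 30 genes. Scd1, the desaturase that makes monounsaturated fatty acids, was at 44.8, 46.0, 37.4 and 24.6 FPKM in WT 1 to 4 and at 31.7, 35.9, 23.8 and 27.3 FPKM in KO 1 to 4. It fell with the tumour transcripts (slope -0.16 ± 0.0507, edgeR adjusted p = 0.0319), from its top in WT 1 and WT 2 to its lowest value in KO 3. Acly, which releases cytosolic acetyl-CoA from citrate, was at 69.6, 70.2, 49.5 and 63.3 FPKM in WT 1 to 4 and at 52.7, 50.2, 45.5 and 54.4 FPKM in KO 1 to 4. KO averaged 50.7 ± 3.86 FPKM and WT 63.2 ± 9.61 FPKM, with WT 3 among the KO values (log2 fold change -0.32 ± 0.141, edgeR adjusted p = 0.492). Acss2, which makes acetyl-CoA from acetate, ran from 1.30 FPKM in KO 3 to 2.36 FPKM in WT 2. It overlaps Gss and Ggt7 on the opposite strand, with means of 384 and 209 counts beside 307 for Acss2. The strand setting of the counting is not given, so the level of Acss2 is uncertain. Negative slopes of Acss2 and Acly were called only with no genotype term.

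**Figure D3:**
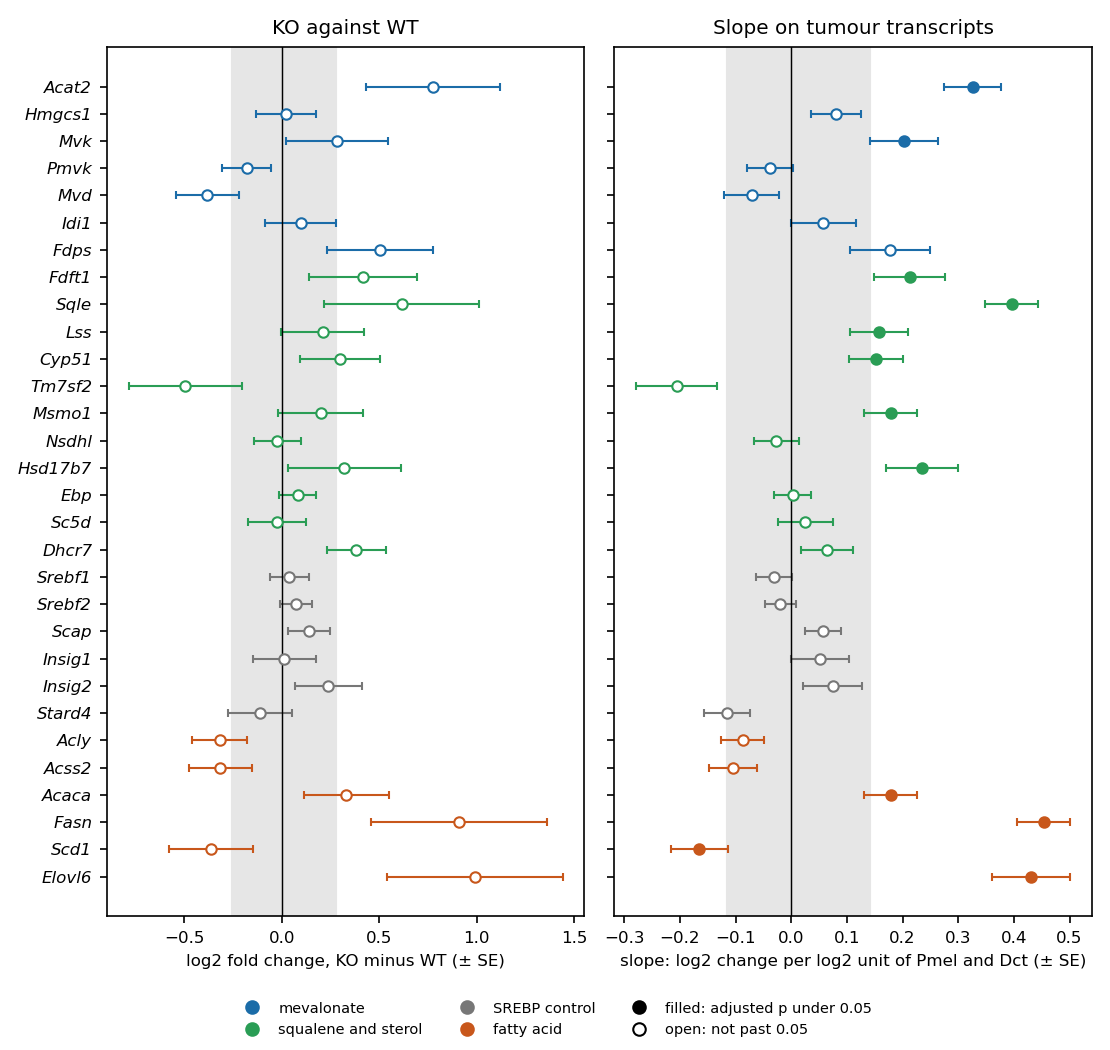
Left, log2 fold change of each member in KO minus WT, and right, its slope on the mean log2 CPM of Pmel and Dct, both ± SE from edgeR over 8 libraries, coloured by role; filled points passed an adjusted p of 0.05 and the grey band is the interquartile range of all tested genes. No point is filled on the left, and on the right the 11 filled points with positive slopes run up to 0.45 in Fasn while Scd1 is filled at -0.16.

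With genotype and tumour transcripts in 1 model, 0 of 30 members differed between KO and WT at equal Pmel and Dct level in edgeR, 0 of them also at an unadjusted p under 0.05; 0% of tested genes were called higher and 0.00630% lower. DESeq2 and limma on log2(FPKM + 1) called 0 members there too. The median log2 difference over the members was -0.00176, against 0.118 without the tumour term. It changed with the fit, to 0.204 with the replicate block and -0.0957 without WT 4 (-0.0092 and 0.0195 over all tested genes). For Fasn it was 0.17 ± 0.161, for Elovl6 0.23 ± 0.237, for Acat2 0.22 ± 0.171 and for Sqle -0.042 ± 0.160.

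Libraries were then matched by number, a pairing that neither the labels nor the data establish. In every match KO showed more Pmel and Dct than WT, by 2.35, 3.12, 1.16 and 0.428 in log2. With the replicate number as a block, Fasn (0.95 ± 0.157), Elovl6 (0.94 ± 0.193), Acat2 (0.78 ± 0.148) and Sqle (0.64 ± 0.116) were higher in KO (log2 fold changes; edgeR adjusted p = 0.0254, 0.0284, 0.0257 and 0.0254) and 0 members were lower. These are 4 of 30 members (13.3%), against 8.98% of all tested genes called higher and 5.01% called lower in that fit. All 4 are among the members with the steepest slopes. Without number 1, 2 or 3 the calls went (edgeR adjusted p = 0.0643 to 0.0921) while the log2 fold changes stayed close, at 0.858 to 0.911 for Fasn, 0.764 to 0.983 for Elovl6, 0.703 to 0.757 for Acat2 and 0.564 to 0.624 for Sqle. Without number 4 all 4 calls stayed. With block and tumour transcripts together, which left 2 residual degrees of freedom, 0 members had a slope past the threshold in edgeR (1.0% of tested genes higher and 0.0252% lower), with Fasn at 0.26 ± 0.129 (edgeR adjusted p = 1).

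The slopes of Fasn, Sqle, Acat2 and Elovl6 passed the threshold with each of the 8 libraries left out in turn. Fasn then ran from 0.41 to 0.50, Sqle from 0.35 to 0.43, Acat2 from 0.28 to 0.37 and Elovl6 from 0.35 to 0.48. The other 8 calls each went with at least 1 library: that of Acaca without WT 1, of Msmo1 without WT 2 or WT 3, of Hsd17b7 without WT 2, WT 3 or KO 1, and of Cyp51 without WT 2, WT 3, KO 1 or KO 2. Fdft1 lost its call without WT 1, WT 2, WT 3 or KO 3, Mvk without 6 libraries (all but WT 4 and KO 4), Lss without 7 (all but WT 2) and Scd1 without 6 (all but WT 3 and KO 3). In these fits 5 to 11 of the 30 members were called higher, against 14.8% to 18.6% of tested genes. The fewest members, 5, were called without WT 3, near the 14.8% of tested genes there. WT 1 and WT 2 form a cluster of their own in tumour transcripts, so the slopes were fitted again without both. They were then steeper, at 0.64 ± 0.0703 for Fasn, 0.59 ± 0.0642 for Sqle, 0.50 ± 0.0760 for Acat2, 0.73 ± 0.0887 for Elovl6 and 0.37 ± 0.0595 for Acaca (edgeR adjusted p = 0.000348, 0.00032, 0.00136, 0.000501 and 0.00184). The calls of Mvk, Fdft1 and Scd1 were lost there (edgeR adjusted p = 0.136, 0.0934 and 0.147). Dhcr7 and Insig2 gained a positive call, and Mvd and Tm7sf2 a negative one. In that fit 21.2% of tested genes were called higher and 20.5% lower.

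By library, 11 of 30 members had WT 1 and WT 2 below the other 6 libraries, as did 23.0% of tested genes, and 5 had them above, as did 18.0%. KO 3 was the highest of the 8 libraries in 20 members, against 36.1% of tested genes, and the lowest in 6, against 31.9%. In KO 3 the Kupffer markers had their lowest sum, 7553 CPM. The part of the tumour cells in the members' values was not tested, and in bulk libraries more cells of a kind and more RNA per cell cannot be told apart.

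The slopes were set beside those of marker genes fitted in the same model. The 10 melanoma markers had slopes from 0.451 in Mitf to 1.29 in Gpr143, with a median of 0.992 that rests in part on Pmel and Dct themselves (0.989 without them). Mitf stood alone at the lower end, and the next slope was 0.936 in Sox10. Fasn lay beside Mitf and well below all the other melanoma markers, and Elovl6, Sqle and Acat2 lay below all 10. The 10 proliferation genes, which mark dividing cells, all rose with Pmel and Dct, with a median of 0.426 and a range of 0.122 to 0.658, and their sum ran from 476 to 1156 CPM in WT and from 901 to 2272 CPM in KO. All 10 Kupffer markers had negative slopes, with a median of -0.305, and 8 passed the threshold; Scd1, at -0.16, lay above all of them. The 11 hepatocyte markers rose as well, with a median of 0.488 and a range of 0.406 to 0.689. Hepatocytes make much lipid, and the sum of these markers was 547, 422, 1890 and 615 CPM in WT 1 to 4 and 273, 169, 716 and 714 CPM in KO 1 to 4. The sum was highest in WT 3, followed by KO 3 and, nearly equal to it, KO 4. The slopes were also fitted without WT 3 and KO 3 together, a choice made after the data were seen that keeps KO 4. Those of Fasn, Sqle, Acat2 and Elovl6 were then 0.45 ± 0.0350, 0.33 ± 0.0477, 0.28 ± 0.0519 and 0.37 ± 0.0485 (edgeR adjusted p = 0.000129, 0.00315, 0.00887 and 0.002). The calls of Acaca and Scd1 also stayed. Those of Mvk, Fdft1, Lss, Cyp51, Msmo1 and Hsd17b7 were lost (edgeR adjusted p = 0.064 to 0.334). In that fit 5 of 30 members were called higher and 1 lower, against 12.5% and 8.46% of tested genes. Albumin (Alb), the defining hepatocyte transcript, had at least 2148 counts in every library, and the part of hepatocyte RNA in the members' values was not tested.

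**Figure D4:**
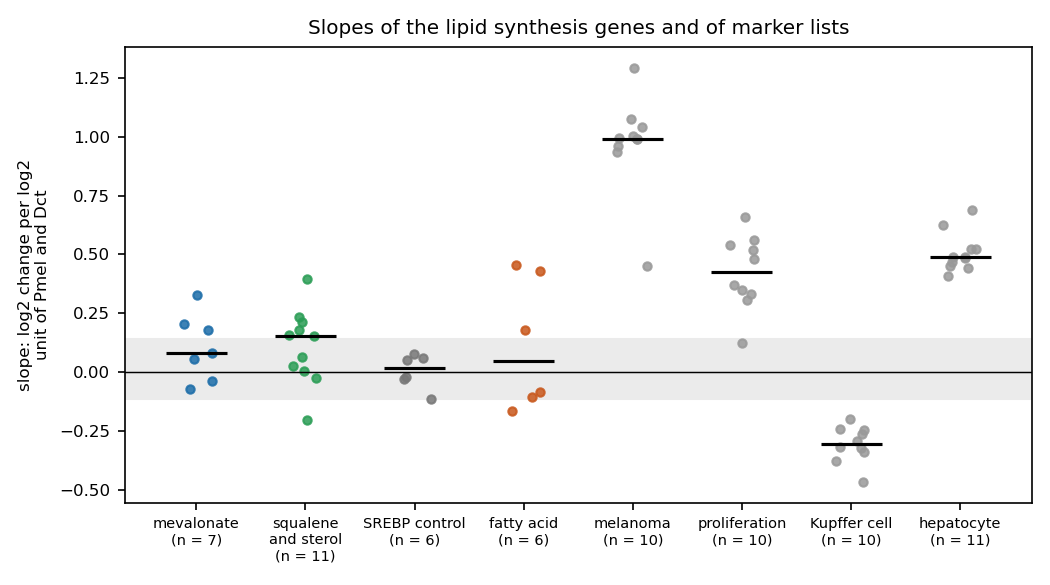
Slope on the mean log2 CPM of Pmel and Dct for each gene of the 4 roles (coloured) and of 4 marker lists (grey), with the median of each list as a black line and the interquartile range of all tested genes as a grey band. The melanoma markers lie around 0.992 and the Kupffer markers around -0.305, and the lipid synthesis genes lie between them. All 11 members with a called positive slope are within the range of the proliferation markers (0.122 to 0.658). Fasn and Elovl6 are also within that of the hepatocyte markers (0.406 to 0.689).

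Other genes of lipid metabolism, taken as lists, were read in the same fits, and 0 of them passed in KO against WT in edgeR without the block (2 had an unadjusted p under 0.05, both in the list of fatty acid enzymes; DESeq2 and limma were not tabulated for these lists). Of 16 further fatty acid enzymes and carriers, 7 rose with the tumour transcripts (43.8%, against 20.7% of tested genes) and 3 fell (18.8%, near the background of 13.9%). Fabp5, a fatty acid carrier, had a slope of 0.72 ± 0.0370 and was at 8.30, 7.78, 50.3 and 41.2 FPKM in WT 1 to 4 and at 32.1, 39.4, 108 and 53.5 FPKM in KO 1 to 4. Me1, the malic enzyme that supplies NADPH for lipid synthesis, had a slope of 0.84 ± 0.0494, the desaturase Fads2 0.61 ± 0.0477 and the elongase Elovl7 0.89 ± 0.0791 (edgeR adjusted p = 8.37e-07, 2.20e-06, 1.48e-05 and 3.50e-05 for Fabp5, Me1, Fads2 and Elovl7). Scd2, the sister gene of Scd1, went opposite to it, at 31.9, 31.2, 69.8 and 64.6 FPKM in WT 1 to 4 and at 56.9, 76.8, 146 and 79.6 FPKM in KO 1 to 4 (slope 0.36 ± 0.0506, edgeR adjusted p = 0.000777). It was picked out after its values were seen.

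Of 12 genes of the isoprenoid branches, which attach farnesyl and geranylgeranyl groups to proteins or build dolichol and ubiquinone, 3 rose (25%, near the background of 20.7%) and 0 fell in edgeR. They were the prenyltransferase subunits Fnta (0.14 ± 0.0383), Fntb (0.17 ± 0.0486) and Rabggtb (0.12 ± 0.0358; edgeR adjusted p = 0.0178, 0.0234 and 0.0322). Of 11 genes that process SREBP, degrade sterol enzymes or bind sterol, 5 fell (45.5%, against 13.9% of tested genes) and 0 rose (against 20.7%), among them the sterol-binding lysosomal protein Npc2 (-0.23 ± 0.0439), the ubiquitin-conjugating enzyme Ube2g2 (-0.15 ± 0.0320) and Erlin1 (-0.13 ± 0.0288; edgeR adjusted p = 0.00438, 0.00658 and 0.0101). Of 10 tested genes of sterol efflux, esterification and LXR, the oxysterol receptor system, 7 fell (70%, against 13.9% of tested genes) and 0 rose, with a median slope of -0.223. Lipa, the lysosomal lipase, was at 141, 121, 53.5 and 62.8 FPKM in WT 1 to 4 and at 82.3, 76.5, 32.8 and 62.2 FPKM in KO 1 to 4 (slope -0.38 ± 0.0565, edgeR adjusted p = 0.0011). Npc2 is in both of the last lists, and Ch25h, with 0 to 9 counts, was not tested.

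With the replicate block, whose pairing by number is assumed, some of these lists' genes differed between KO and WT in edgeR. Of the 16 fatty acid enzymes and carriers, 7 were higher in KO (43.8%, against 8.98% of tested genes) and 1 lower (against 5.01%), with Scd2 at a log2 fold change of 0.88 and Fabp5 at 1.43 (edgeR adjusted p = 0.0256 and 0.0287). Of the 10 sterol efflux and LXR genes, 5 were lower and 0 higher, with Lipa at -0.54 (edgeR adjusted p = 0.0486). Of the SREBP processing list 1 gene was lower, Npc2, at -0.47 (edgeR adjusted p = 0.0425).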

How the data were processed

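Raw counts per gene and FPKM were deposited for 4 WT and 4 KO libraries. The submitters' processing notes name HTSeq 0.6.1 and mm10; no source used here states the aligner, the strandedness or the gene annotation. The authors' FPKM equal count divided by exonic size and column total (100% of genes within 0.015) and served in 1 alternative test. Gene positions in the deposited table matched GENCODE M21 (GRCm38) for 1472 of 52073 identifiers, so their build is unknown. Column letters C and K were read as WT and KO, digits as title numbers.

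Genes were kept by filterByExpr (15870 of 56691), scaled by TMM and tested, 2-sided, by edgeR 4.0.16 (R 4.3.3) quasi-likelihood F tests for genotype, and for genotype and slope together, adjusted by Benjamini-Hochberg over every tested gene (threshold 0.05). FPKM printed are recomputed from counts on TMM-scaled sizes. Log2 CPM used a prior count of 2. SEs derive from the unshrunken coefficient and F. The limit that a count of 0 allows (3 counts) was 0.153 to 0.2135 CPM by library and covers counting error alone; every member had at least 71 counts in each library. Alternatives used RLE scaling, library totals, Kupffer marker scaling, no filter, DESeq2 1.42.0, limma 3.58.1 on log2(FPKM + 1) or + 0.1, a replicate block, other tumour measures and left-out libraries. The tests were tried on simulated data first.

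Same-numbered libraries deviated together from their genotype means, with correlations of 0.561, 0.544, 0.66 and 0.29 for numbers 1 to 4 over tested genes. Libraries of unequal number reached 0.669 (WT 2 with KO 1), and WT 3 with KO 4 (0.309) exceeded WT 4 with KO 4. Correlations between numbers 1 or 2 and numbers 3 or 4 were all negative. Neither the labels nor these correlations establish pairs by number, so the replicate block is an alternative fit whose pairing is assumed. Libraries of the same genotype differed by more than sampling noise (chi-square per degree of freedom at least 11).

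Members, lists and tests were chosen with earlier results of these data known. Values in every library are given for the 2 most abundant members of each role, the largest fold change and slope, and every member past a threshold; Dhcr7 was added for its separate groups. From each further list up to 4 genes past a threshold were named by smallest p; 1 gene that this rule names is not reported here.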

Additional observations from a re-analysis of the deposited data

Results flagged for a closer look

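In 6 of the 60 groups of 4 values (30 members in 2 genotypes), 1 library stood apart from the other 3 by more of the range than Dixon's 95% critical value; chance gives about 3 in 60. In 5 of the 6 that library was KO 3, which had the most Pmel and Dct. It was at 13.2 FPKM in Hmgcs1 (next 9.21), 8.58 in Fdps (next 4.54), 14.7 in Cyp51 (next 9.03), 8.46 in Msmo1 (next 5.30) and 25.4 in Insig1 (next 18.3). In Srebf1 it was KO 4, at 10.1 FPKM (next 8.87).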

How the results depend on the processing

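In KO against WT, 0 members passed in each alternative except the replicate block (4 higher, with 1425 genes higher and 795 lower in all) and the block without number 4 (5 higher and 1 lower, with 1475 and 754 genes). The block gave 43 and 164 genes without number 1, and 1 higher gene without number 2. All genes called were 30 higher and 36 lower in DESeq2 and 1 higher with no filter, and 0 to 1 higher with libraries left out. At equal tumour level they were 8 and 24 with no filter, 27 and 81 in DESeq2, 2 lower with the block, and 0 to 5 higher and 1 to 34 lower with libraries left out.

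Slope calls of members were 5 to 11 of 30 higher and 0 to 2 lower with single libraries left out. Of all tested genes 14.8% to 18.6% were then called higher, and 978 to 2465 genes lower. With the block 0 and 0 members passed (159 and 4 genes), and the slopes of Lss and Acaca turned to -0.109 and -0.000204. Scaling to equal Kupffer marker sums shifted the median slope of all genes to 0.269 and the median KO difference to 0.811. It gave 29 members higher and 0 lower (11924 and 32 genes) and left 0 members with a negative slope (10 before) and 0 with a negative fold change (9 before). Scd1 and Stard4 then had slopes of 0.145 and 0.191, and Mvd and Acly log2 fold changes of 0.338 and 0.513, all 4 below the shifted median. Library totals gave 1109 lower genes and 0 lower members, and limma on log2(FPKM + 1) 961 and 0. The split of all slope calls was then 27.6% higher to 6.99% lower with library totals and 24.5% to 6.06% in limma, against 20.7% to 13.9%. Lower members were 2 in DESeq2, with Pmel alone, with all melanoma markers and without WT 1 and WT 2 (3448 lower genes), and 5 with no genotype term. Without WT 3 and KO 3, a choice made after the data were seen like the block without single numbers, 5 members were higher among 1989 genes, with 1349 lower. The cause was not tested.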
